A study of Mus musculus with 6 samples.

Results

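The genes described here are 38 markers of monocytes and macrophages, taken as a list of names, out of 19935 genes measured. The list was chosen with earlier results of these data known, so its counts are descriptions. Each of the 38 had 1 probe set with a single gene symbol, so all of them could be followed. The study set osteoblastic cells of Y1KO mice, which lack the Y1 receptor for neuropeptide Y, against those of wild-type (WT) mice, on 2 Y1KO and 4 WT single-channel arrays. All of the mice were male, and all of them, WT included, carried a green fluorescent reporter that a 3.6-kb fragment of the collagen I promoter of the rat drives. Stromal cells of the hind limb marrow were grown for 7 days in control medium, and fluorescent cells were then sorted, so what was measured is a promoter-gated culture and not bone. The sources used here give neither strain nor age, nor whether the arrays stand for separate mice or cultures. The p-values therefore reflect array-to-array spread, which may be technical.

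Macrophages descend from blood progenitors and grow in marrow cultures beside stromal cells. Their survival rests on the receptor Csf1r, whose ligands Csf1 and Il34 are made by stromal cells, and their identity on the transcription factor PU.1, the product of Spi1. They take up immune complexes through Fc receptors, of which the activating ones depend on the adapter Fcer1g. The adapter Tyrobp serves receptors such as Trem2. Macrophages bind microbes and debris through lectins and scavenger receptors, and degrade what they ingest with lysosomal enzymes. Bone marrow macrophages are also the source of osteoclasts. Whether the RNA on these arrays came from more cells of this kind or from more RNA per cell cannot be told apart in bulk samples.

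The arrays were of like scale. Array medians lay between 5.3 and 5.32 in Y1KO and between 5.32 and 5.37 in WT, and correlations over probe sets, which are not independent replicates, were 0.9964 between the Y1KO arrays and 0.9921 to 0.9959 among the WT arrays. Npy1r, the targeted gene, was at 2.89 and 2.83 log2 units in Y1KO, against 3.11, 2.84, 2.78 and 3 in WT, too dim to check the labels. Col1a1, whose promoter piece gates the sort, was at 13.6 ± 0.03 (SD, n = 2) in Y1KO and 13.42 ± 0.05 (SD, n = 4) in WT. As a mark of background, the 95th percentile of 1189 olfactory and vomeronasal receptor genes was taken, which stood at 4.37. All 11 measured osteoblast genes lay above that mark in both groups. Of the macrophage genes 27 did so in Y1KO and 26 in WT, and the 26 are 68.4% of the list, close to the 70.4% of all genes above the mark in WT.

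Macrophage markers were higher in the Y1KO cells for a large part of the list, by modest amounts. Of the 38 genes, 16 rose and 0 fell in Y1KO (limma, adjusted p under 0.05 over all genes), where 6.1% of all genes rose and 6.64% fell. The 16 differences ran from 0.32 to 1.03 on the log2 scale, or 1.25-fold to 2.04-fold, and 11 of the 16 were at least 1.5-fold. The median difference of the 38 genes was 0.36, against 0.01 for all genes tested. In 23 of the 38 both Y1KO arrays lay above every WT array, an arrangement seen in 17.5% of all genes, and in 1, Cd83, both lay below, as in 17.3% of all genes. Without adjustment 20 members were higher and 1 lower at a limma p under 0.05, and 1 fell after adjustment, again Cd83, with quantile normalization and with array weights.

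This count depended on single arrays and on the variance model. It was 1 without Y1KO replicate 2, namely Ctss, where 0.762% of all genes rose, and 14 without Y1KO replicate 1, where 1.87% of all genes rose. It was 7 without WT replicate 4, where 4.81% of all genes rose. There Lyz2, Cd68, C1qc, Csf1r, Mrc1, Aif1, Laptm5, Tyrobp and Lilrb4a lost the call. The count was 11 without WT replicate 1, where 4.74% of all genes rose and Csf1r, Mrc1, Msr1, Aif1 and Lilrb4a lost the call. Mrc1 and Aif1 also lost it without WT replicate 2, Cd68 and Lilrb4a without WT replicate 3, and Msr1, Aif1 and Lilrb4a without Y1KO replicate 1. Without moderation of the variance the count was 1, namely Aif1, where 0.702% of all genes rose. All 16 kept a positive difference in each of these fits: without Y1KO replicate 2 the 15 that lost the call were 0.31 to 0.82 higher, with limma adjusted p of 0.0586 to 0.407.

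**Figure D1:**
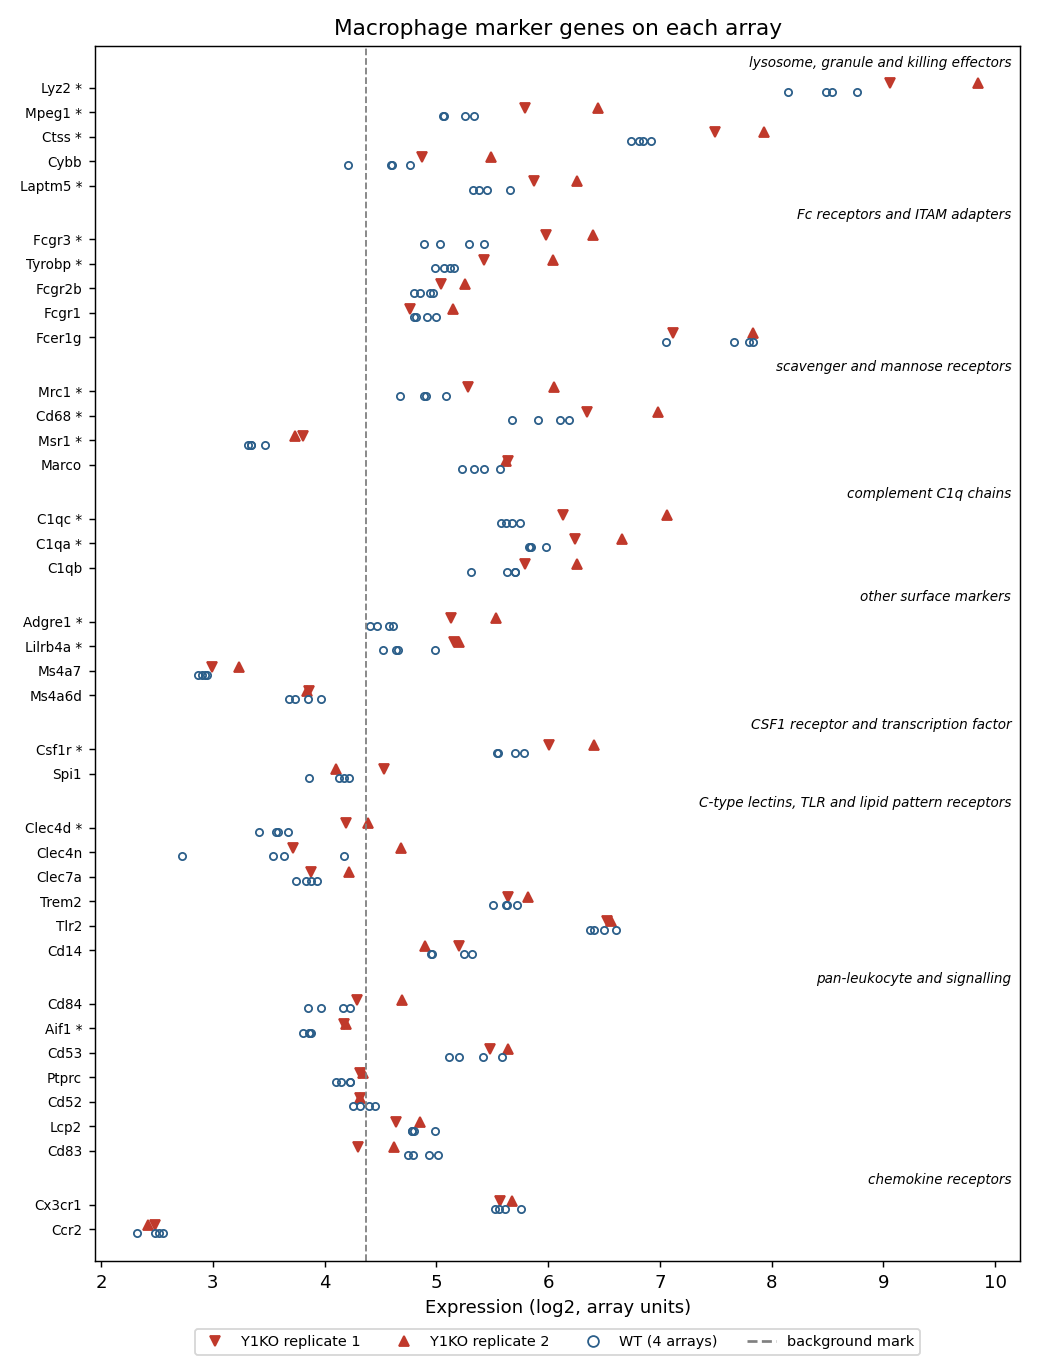
Expression of the 38 marker genes in log2 array units on each array, grouped by role, with the Y1KO arrays as triangles above the 4 WT arrays as circles, asterisks on genes past the test and a dashed line at the background mark of 4.37. In the 16 genes with an asterisk, both triangles lie to the right of every circle.

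**Figure D2:**
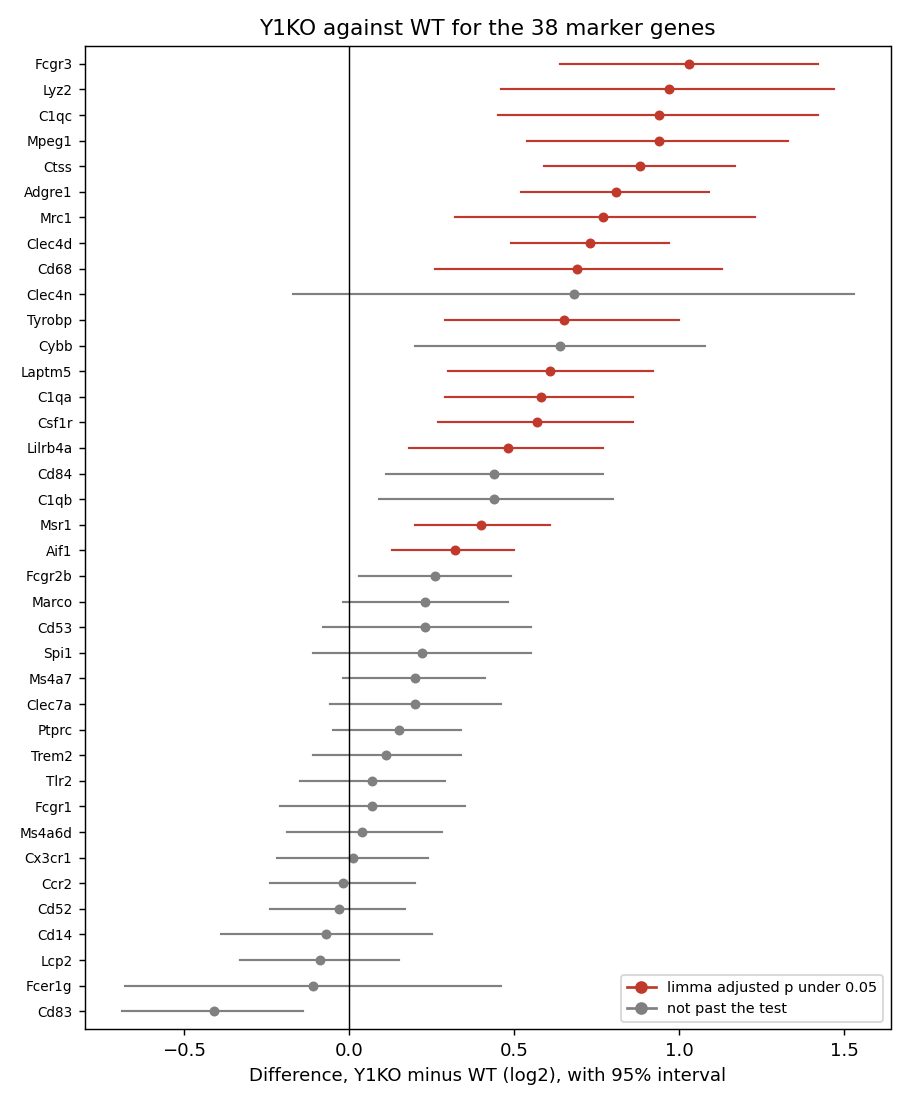
Difference between Y1KO and WT on the log2 scale for each of the 38 genes, with its 95% interval from the limma model. The 16 genes past the test, in red, run from Aif1 at 0.32 to Fcgr3 at 1.03, and Cd83 at -0.41 is the lowest of all.

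PU.1 binds purine-rich DNA with the letters GAGGAA at its centre, and promoters are shown here because several members were higher together. RefSeq promoters of build GRCm38.p6, running from 250 bases before to 50 after the start, were at hand for 26 of the 38 genes. GAGGAA stood on one or the other strand in 19 of the 26 (73.1%), against 30.2% of the 15612 genes on the array with a promoter. It was present in 8 of the 10 risen members with a promoter (80.0%), close to the 73.1% of all members with a promoter. Whether these letters bear on the differences was not tested. The longer GAGGAAGT, which contains GAGGAA, stood in 3 of the 26 (11.5%), against 3.24% of those genes. Both strands were searched, and a match is a description of the letters and not of bound PU.1. Bases from 200 before to 20 after the start are given below on the gene's strand, 5′ to 3′, for the 7 risen members with a match in this window, for Cd53, which did not pass the test but holds the longer motif, and for Lyz2, which rose and holds none. Capitals mark GAGGAA, or TTCCTC where the motif is on the opposite strand.
Ctss (chr3:95526586-95526805, plus strand): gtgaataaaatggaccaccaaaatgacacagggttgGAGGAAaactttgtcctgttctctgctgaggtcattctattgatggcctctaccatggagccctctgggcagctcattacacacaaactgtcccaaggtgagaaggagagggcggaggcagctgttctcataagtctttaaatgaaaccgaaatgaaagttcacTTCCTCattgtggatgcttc
C1qc (chr4:136892895-136893114, minus strand): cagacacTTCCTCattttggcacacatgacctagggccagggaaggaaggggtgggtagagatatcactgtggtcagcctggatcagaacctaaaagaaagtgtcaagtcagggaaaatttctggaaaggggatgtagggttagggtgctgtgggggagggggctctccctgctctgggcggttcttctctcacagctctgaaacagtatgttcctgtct
Fcgr3 (chr1:171059384-171059603, minus strand): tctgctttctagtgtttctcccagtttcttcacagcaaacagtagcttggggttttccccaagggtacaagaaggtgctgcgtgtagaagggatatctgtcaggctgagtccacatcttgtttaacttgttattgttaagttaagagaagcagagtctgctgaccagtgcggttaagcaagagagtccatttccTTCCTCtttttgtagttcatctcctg
Mrc1 (chr2:14229214-14229433, plus strand): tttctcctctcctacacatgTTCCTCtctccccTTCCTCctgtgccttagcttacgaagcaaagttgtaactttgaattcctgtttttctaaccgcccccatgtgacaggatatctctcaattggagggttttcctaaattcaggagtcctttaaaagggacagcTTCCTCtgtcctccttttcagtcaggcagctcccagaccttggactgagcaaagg
Laptm5 (chr4:130913116-130913335, plus strand): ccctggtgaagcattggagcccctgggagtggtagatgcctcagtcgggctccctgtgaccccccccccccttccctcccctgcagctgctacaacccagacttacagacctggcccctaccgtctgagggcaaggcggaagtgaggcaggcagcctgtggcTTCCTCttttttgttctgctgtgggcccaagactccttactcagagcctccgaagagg
Aif1 (chr17:35176033-35176252, minus strand): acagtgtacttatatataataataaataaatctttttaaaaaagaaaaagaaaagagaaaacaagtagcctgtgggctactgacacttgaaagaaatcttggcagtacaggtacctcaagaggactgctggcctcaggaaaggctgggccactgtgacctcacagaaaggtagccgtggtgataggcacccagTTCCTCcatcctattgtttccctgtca
Clec4d (chr6:123261907-123262126, plus strand): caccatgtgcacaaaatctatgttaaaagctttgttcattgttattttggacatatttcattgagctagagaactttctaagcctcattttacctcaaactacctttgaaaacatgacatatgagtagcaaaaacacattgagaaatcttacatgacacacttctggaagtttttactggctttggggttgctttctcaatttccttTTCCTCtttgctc
Cd53 (chr3:106790130-106790349, minus strand): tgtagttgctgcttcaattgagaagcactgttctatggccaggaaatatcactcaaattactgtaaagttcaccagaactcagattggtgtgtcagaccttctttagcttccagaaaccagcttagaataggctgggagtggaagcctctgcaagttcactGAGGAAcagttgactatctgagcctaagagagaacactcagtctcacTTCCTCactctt
Lyz2 (chr10:117282253-117282472, minus strand): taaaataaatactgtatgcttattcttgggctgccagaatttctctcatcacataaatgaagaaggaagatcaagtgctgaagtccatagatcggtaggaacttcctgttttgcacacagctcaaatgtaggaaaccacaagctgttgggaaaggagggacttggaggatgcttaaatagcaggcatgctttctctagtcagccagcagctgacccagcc
Counted from the start, with negative positions before it, a match begins at position 1 in Ctss, -6 in Fcgr3 and -7 in Aif1. Ctss holds another at -164, and Mrc1 holds 3, at -180, -167 and -35. Cd68 also rose and held matches at -225 and 30, outside the window shown. Mpeg1 rose with no match in its promoter.

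Of the lysosomal and killing genes 4 of 5 rose, with a median difference of 0.88, the highest of the 9 role groups. Lyz2, the lysozyme of myeloid cells, read 9.06 and 9.85 in Y1KO, against 8.54, 8.49, 8.76 and 8.15 in WT. Both Y1KO arrays were above all WT arrays, and replicate 2 stood well above replicate 1. The difference was 0.97 (SE 0.22, 1.95-fold, limma adjusted p = 0.0237). The array design may not part Lyz2 from its near-identical neighbour Lyz1. Ctss, the cathepsin that trims the invariant chain of class II molecules, read 7.49 and 7.93 in Y1KO, against 6.85, 6.74, 6.92 and 6.81 in WT. Its WT arrays lay within 0.18 of each other. It was 1.84-fold higher in Y1KO (log2 0.88, SE 0.13, limma adjusted p = 0.0033). Ctss was the member least affected by single arrays: it kept the call in 14 of 15 alternatives and lost it without moderation (the highest adjusted p was 0.0745).

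Mpeg1 encodes a pore-forming protein that acts on engulfed bacteria. It read 5.79 and 6.45 in Y1KO, against 5.07, 5.26, 5.34 and 5.06 in WT, with no overlap and a difference of 0.94 (SE 0.17, limma adjusted p = 0.00903). Laptm5, a lysosomal membrane protein of blood cells, was 0.61 higher (SE 0.14, limma adjusted p = 0.0203). Cybb, the catalytic subunit of the phagocyte oxidase, did not pass at 4.87 and 5.49 in Y1KO, against 4.6, 4.76, 4.59 and 4.21 in WT. Its groups did not overlap, and the difference was 0.64 (95% interval 0.2 to 1.08, limma adjusted p = 0.0667), past the test without Y1KO replicate 1, without WT replicate 2 or with array weights.

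Among the Fc receptors and activating adapters 2 of 5 rose. Fcgr3, the low-affinity activating receptor for IgG, read 5.98 and 6.4 in Y1KO, against 5.29, 4.89, 5.43 and 5.03 in WT. Its difference of 1.03 (SE 0.17, 2.04-fold, limma adjusted p = 0.00608) was the largest of all 38 members. Tyrobp, an adapter that carries an activation motif for receptors such as Trem2, read 5.43 and 6.04 in Y1KO, against 5.16, 5.07, 5.12 and 4.99 in WT. Both Y1KO arrays lay above the WT arrays, by much more in replicate 2, and the difference was 0.65 (SE 0.15, limma adjusted p = 0.0273).

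The other 3 did not pass. Fcer1g, the common gamma chain on which activating Fc receptors depend, read 7.12 and 7.83 in Y1KO, against 7.66, 7.83, 7.8 and 7.05 in WT, so the groups overlapped over nearly their whole range. Its difference was -0.11 (95% interval -0.68 to 0.46), and without Y1KO replicate 1 the sign turned. Fcgr2b, the inhibitory IgG receptor, was 0.26 higher (95% interval 0.03 to 0.49, limma adjusted p = 0.147) without overlap. Fcgr1, the high-affinity receptor, was 0.07 higher (95% interval -0.21 to 0.35), a sign that turned without Y1KO replicate 2. Mouse Fcgr2b and Fcgr3 have closely related outer domains, which probe sets may not part fully.

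The chains of C1q, the starter of the classical complement pathway that macrophages secrete, gave 2 risen genes of 3. C1qc read 6.13 and 7.06 in Y1KO, against 5.62, 5.75, 5.68 and 5.58 in WT. The WT arrays were tight and the Y1KO arrays were 0.94 apart from each other, as large as the difference of 0.94 between the groups (SE 0.21, limma adjusted p = 0.0221). C1qa read 6.24 and 6.66 in Y1KO, against 5.84, 5.98, 5.83 and 5.85 in WT, a difference of 0.58 (SE 0.12, limma adjusted p = 0.0176). C1qb, the chain that did not pass, read 5.79 and 6.26 in Y1KO, against 5.63, 5.7, 5.7 and 5.31 in WT. Its groups did not overlap either, with a difference of 0.44 (95% interval 0.09 to 0.8, limma adjusted p = 0.113). The 3 genes lie together on chromosome 4.

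Of the scavenger and mannose receptors 3 of 4 rose. Mrc1, the mannose receptor of tissue macrophages, read 5.28 and 6.05 in Y1KO, against 4.91, 4.89, 5.09 and 4.67 in WT, and was 0.77 higher (SE 0.2, limma adjusted p = 0.0365). Cd68, a glycoprotein of late endosomes, read 6.35 and 6.98 in Y1KO, against 6.19, 6.11, 5.91 and 5.68 in WT. Y1KO replicate 1 exceeded the highest WT array only narrowly, and the difference was 0.69 (SE 0.19, limma adjusted p = 0.0476). Msr1, a scavenger receptor for modified lipoproteins, was 0.4 higher (limma adjusted p = 0.0202) but below the background mark in both groups, where the array may understate a change. Marco, a related receptor for bacteria, was 0.23 higher without passing the test (95% interval -0.02 to 0.48).

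Adgre1, which encodes the F4/80 antigen, the classical surface mark of mouse macrophages, read 5.13 and 5.53 in Y1KO, against 4.47, 4.61, 4.58 and 4.41 in WT. The groups stood clearly apart, with a difference of 0.81 (SE 0.13, 1.75-fold, limma adjusted p = 0.00448). Lilrb4a, an inhibitory receptor with a close neighbour of like sequence, was 0.48 higher (limma adjusted p = 0.0453) and kept its call in 5 of 13 alternatives, the fewest of the 16. The tetraspan genes Ms4a7 and Ms4a6d were below the mark in both groups and did not pass, at 0.2 and 0.04, and the sign of Ms4a6d turned without WT replicate 2.

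Csf1r, the receptor for Csf1, rose while Spi1 did not pass. Csf1r read 6.01 and 6.41 in Y1KO, against 5.55, 5.78, 5.7 and 5.54 in WT, a difference of 0.57 (SE 0.13, 1.48-fold, limma adjusted p = 0.0236). All its Y1KO values were above all its WT values. Spi1 read 4.53 and 4.1 in Y1KO, against 4.22, 4.13, 3.86 and 4.17 in WT, and was below the mark on average in both groups. Its groups overlapped, with Y1KO replicate 1 the high one, opposite to most members, and its difference was 0.22 (95% interval -0.11 to 0.55, limma adjusted p = 0.43).

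The receptors for microbial patterns gave 1 risen gene of 6. Clec4d, a lectin that binds mycobacterial glycolipid, read 4.19 and 4.39 in Y1KO, against 3.58, 3.56, 3.67 and 3.41 in WT, a difference of 0.73 (SE 0.11, limma adjusted p = 0.0033). Its group means were both below the mark, so its level is uncertain although its groups were far apart. Clec4n, a fungal lectin receptor, was the most scattered member: it read 3.72 and 4.68 in Y1KO, against 3.54, 3.64, 4.17 and 2.72 in WT. Its WT arrays spanned 1.45 and its difference of 0.68 had a 95% interval of -0.17 to 1.53. Clec7a, which binds beta-glucan, Trem2, a lipid receptor of macrophages and osteoclasts, and Tlr2, a receptor for bacterial lipopeptides, differed by 0.2, 0.11 and 0.07 without passing, and the sign of Tlr2 turned with the replicate number as a block. Cd14, the co-receptor for endotoxin, differed by -0.07 (95% interval -0.39 to 0.25), with the sign turned without Y1KO replicate 2.

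Markers shared with other leukocytes and the chemokine receptors were mostly not past the test. Of 7 shared markers 1 rose, Aif1, an actin-binding protein used to stain macrophages and microglia, at 4.17 and 4.19 in Y1KO, against 3.86, 3.81, 3.88 and 3.87 in WT. Its values lay below the mark, and the difference of 0.32 (SE 0.08, limma adjusted p = 0.0349) was the smallest of the 16. Ptprc, the CD45 gene of all nucleated blood cells, read 4.32 and 4.34 in Y1KO, against 4.1, 4.23, 4.15 and 4.23 in WT, also below the mark. Its groups did not overlap, and the difference was 0.15 (95% interval -0.05 to 0.34, limma adjusted p = 0.352). Cd84, an adhesion receptor of the SLAM family, was 0.44 higher (limma adjusted p = 0.0908), Cd53, a tetraspanin, 0.23 higher, and Cd52 and the adapter gene Lcp2 differed by -0.03 and -0.09, all without passing. The sign of Lcp2 turned without Y1KO replicate 1.

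Cd83, a surface protein of mature dendritic cells that other activated cells also make, went the other way. It read 4.3 and 4.62 in Y1KO, against 4.79, 4.75, 5.01 and 4.93 in WT, with both Y1KO arrays below all WT arrays. With an SE of 0.12 the difference of -0.41 had a 95% interval of -0.69 to -0.14 and did not pass (limma adjusted p = 0.0569). The chemokine receptors that part resident from inflammatory monocytes did not pass: Cx3cr1 differed by 0.01 (95% interval -0.22 to 0.24) and Ccr2 by -0.02 (95% interval -0.24 to 0.2). Ccr2 lay well below the mark on all 6 arrays, and its sign turned with median-centred arrays and without WT replicate 1 or Y1KO replicate 2. The sign of Cx3cr1 turned without WT replicate 1, WT replicate 4 or Y1KO replicate 2.

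The Y1KO arrays differed from each other across the list. Relative to the WT mean of each gene, the mean over the 38 genes was 0.23 in Y1KO replicate 1 and 0.54 in Y1KO replicate 2, and between -0.1 and 0.05 in the WT arrays. In 32 of the 38 genes (84.2%) Y1KO replicate 2 was above replicate 1, against 51.8% of all genes, with a median gap of 0.33 against 0.01. Of the lists followed below, leukocyte receptor signalling had a like share, 82.6%, and the phagocyte oxidase and lysosome a higher one, 93.8%. The remaining lists ran from 42.9% to 70.0%. Among the 16 risen genes 15 were higher in replicate 2, Msr1 being the exception by 0.08. The gap was widest for Clec4n (0.96) and C1qc (0.94), and for Aif1, Lilrb4a, Ptprc, Marco, Tlr2, Cd52 and Ms4a6d both arrays lay within 0.05 of each other. WT replicate 4 held the lowest WT value in 20 of the 38 genes and in 11 of the 16 that rose, Lyz2, Cd68, Mrc1 and Tyrobp among them. With 2 Y1KO arrays the gap between them has no test.

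**Figure D3:**
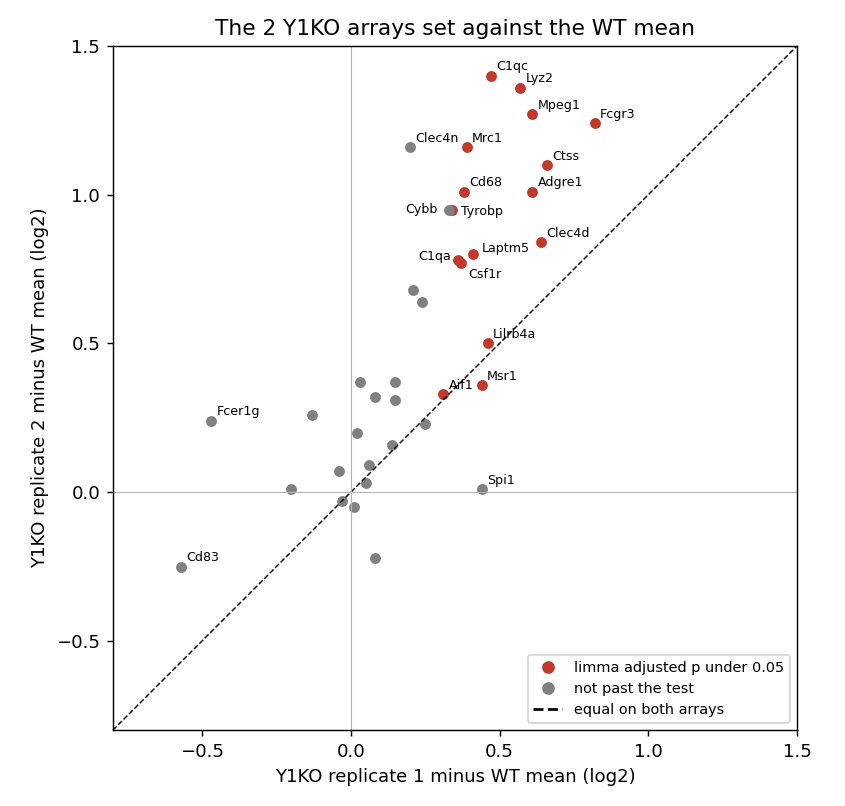
Difference of each Y1KO array from the WT mean on the log2 scale, replicate 1 across and replicate 2 upwards, 1 point per marker gene, with a dashed line where both arrays are equal. Of the 16 genes past the test, in red, 15 lie above the line, and Spi1 lies far below it.

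Genes that work with the members were followed as lists, whose counts are read beside the 6.1% of all genes that rose and the 6.64% that fell. Of 23 measured genes of receptor signalling in leukocytes 3 rose and 0 fell, with a median of 0.16 and 6 at an unadjusted limma p under 0.05. Plek, a substrate of protein kinase C in blood cells, read 6.96 and 7.73 in Y1KO, against 5.96, 5.76, 6.31 and 6.43 in WT, 2.35-fold higher in Y1KO (log2 1.23, SE 0.24, limma adjusted p = 0.0112). The phospholipase gene Plcg2, downstream of the activating adapters, rose by 0.69 and the leukocyte plastin gene Lcp1 by 0.54, and these 3 lost the call without Y1KO replicate 2 (differences of 0.84, 0.66 and 0.39). The kinase gene Syk, which docks on the adapters, differed by 0.06, named after its values were seen. Itgam, an integrin gene also named after its values were seen, had a mean of 4.17 in both groups, below the mark.

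Of 16 measured genes of the phagocyte oxidase and lysosome 2 rose and 0 fell, with a median of 0.07 and 4 at an unadjusted limma p under 0.05. Gpnmb, a glycoprotein of macrophages and osteoblasts alike, rose by 1.02 (SE 0.19, limma adjusted p = 0.00965), and Ncf1, a cytosolic subunit of the oxidase, by 0.88 (SE 0.21, limma adjusted p = 0.0257). Both lost the call without Y1KO replicate 2, and Ncf1 also without replicate 1. The oxidase subunit genes Cyba and Ncf4, named after their values were seen, differed by -0.39 and 0.07 without passing, Ncf4 below the mark. Under a 60th percentile filter 4 genes of this list rose, and 1 fell without WT replicate 4. In pattern recognition signalling 2 of 20 rose (10.0%) and 3 fell. The genes that rose were Cd180 at 0.5, a toll-like receptor of B cells and macrophages, and its partner Ly86 at 0.56, named after its values were seen. Both were dim, with WT means of 3.99 and 4.24 below the mark and Y1KO means of 4.49 and 4.8 above it. Under the 40th percentile filter 0 genes of the pattern recognition list rose. Casp1, the inflammasome protease, fell by 0.8, its adapter gene Pycard by 0.42 and the toll-like receptor adapter gene Myd88, named after its values were seen, by 0.37. All 5 lost the call without Y1KO replicate 2. Cd180, Pycard and Myd88 also lost it without Y1KO replicate 1, Ly86 without WT replicate 3 or 4, and Myd88 without WT replicate 1, 2 or 3 or with median-centred arrays. The count that fell was 4 without WT replicate 4.

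Of 14 measured transcription factors of the myeloid line 1 rose (7.14%, near the share of all genes) and 4 fell, with a median of -0.06. Cebpa, which directs myeloid progenitors and also fat cells, read 6.47 and 6.5 in Y1KO, against 7.84, 7.82, 8.38 and 7.58 in WT. It was 2.67-fold lower without overlap (difference -1.42, SE 0.19, limma adjusted p = 0.00254). Maf and Runx1 fell by 0.83 and 0.66, and Runx1 lost the call without Y1KO replicate 2. Named after their values were seen, the oxysterol receptor gene Nr1h3 fell by 0.58, Klf4 rose by 0.97, and Irf8, a monocyte factor, differed by 0.11 (95% interval -0.17 to 0.39). Klf4 lost the call without either Y1KO array or WT replicate 3, and Nr1h3 without Y1KO replicate 2. None of these factors is particular to macrophages, and which cells made their RNA was not tested.

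Among ligands that feed and attract macrophages, Csf1 fell and Ccl3 rose. Csf1, the ligand of Csf1r, read 8.69 and 8.62 in Y1KO, against 10.2, 10.79, 10.21 and 10.21 in WT. It was 3.24-fold lower in Y1KO (difference -1.69, SE 0.17, limma adjusted p = 0.000877), with the Y1KO arrays close together and far below every WT array. WT replicate 2 stood above the other WT arrays, which agreed within 0.01, and the call was kept in 14 of 15 alternatives, being lost without moderation. Il34, the other ligand of the receptor, differed by -0.34 without overlap (95% interval -0.6 to -0.08, limma adjusted p = 0.0953), named after its values were seen.

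Of the 16 measured ligands 1 rose and 1 fell (6.25% each, near the shares of all genes), with a median of -0.14. The count that fell was 3 without WT replicate 2, 2 without WT replicate 1 or WT replicate 3 and with array weights, and 4 with the replicate number as a block. The one that rose was Ccl3, a chemokine that macrophages themselves secrete, at 6.14 and 6.97 in Y1KO, against 5.82, 5.95, 5.91 and 5.67 in WT. Its difference of 0.72 (SE 0.2, limma adjusted p = 0.0489) lost the call in 7 of 14 alternatives, among them without any 1 of the 4 WT arrays and without Y1KO replicate 2 (lowest difference 0.3, highest adjusted p 0.348). The monocyte attractants Ccl2 and Ccl9, named after their values were seen, differed by -0.86 and -1.44 without overlap and without passing (limma adjusted p = 0.117 and 0.0926), their WT arrays being widely spread, with WT replicate 2 the highest.

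**Figure D4:**
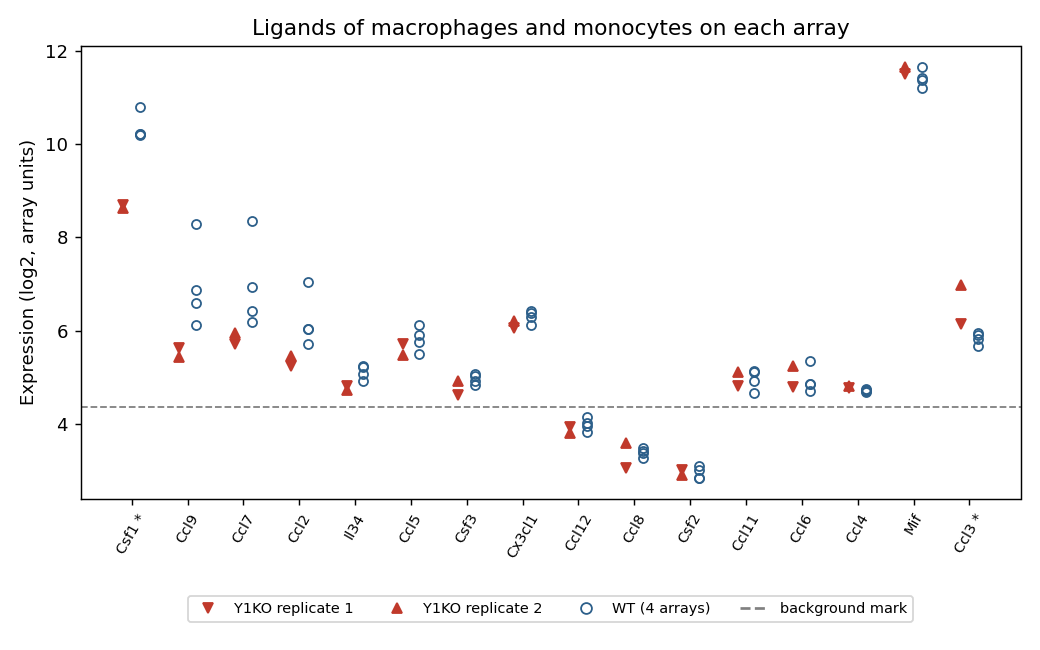
Expression of 16 ligands of macrophages and monocytes in log2 array units on each array, ordered by the difference between Y1KO and WT, with Y1KO arrays as triangles to the left of the WT arrays as circles, asterisks on genes past the test and a dashed line at the background mark of 4.37. Csf1 at the left end is low on both Y1KO arrays and Ccl3 at the right end is high on them.

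Lists of other blood cells that the sort could hold are read beside the 6.1% of all genes that rose and the 6.64% that fell. Of 14 granulocyte genes 0 rose and 0 fell by limma (3 at an unadjusted p under 0.05), with 4 above the background mark in Y1KO and 3 in WT, and their list mean ran from 0.04 to 0.1 in Y1KO and from -0.02 to 0.01 in WT. In 6 of the 14 (42.9%) both Y1KO arrays lay above every WT array and in 1 both lay below. These arrangements were seen in 17.5% and 17.3% of all genes. The defining granulocyte genes S100a8 and S100a9 were below the mark in both groups and differed by 0.1 and 0.08. Of 12 osteoclast genes 0 rose and 2 fell by limma (5 at an unadjusted p under 0.05, 3 higher and 2 lower). Those that fell were Itgb3, an integrin subunit also made by other cells, by 1 and Tcirg1, a proton pump subunit, by 0.46. Named after their values were seen, Acp5, Ctsk and Atp6v0d2 were 0.4, 0.49 and 0.26 higher without overlap and without passing. Of these Atp6v0d2 was below the mark in both groups. The list mean was -0.02 in both Y1KO arrays. The count of risen osteoclast genes was 1 in 7 alternatives, among them without WT replicate 1 or WT replicate 3. Tcirg1 lost the call with median-centred arrays and without either Y1KO array, WT replicate 1 or WT replicate 3.

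Among 13 dendritic cell genes 1 rose, the class II gene H2-Ab1 by 0.73 (limma adjusted p = 0.0483), a call lost without either Y1KO array, WT replicate 1 or WT replicate 3. Among 9 mast cell genes 1 rose, the receptor gene Kit by 0.67 (limma adjusted p = 0.00252), which kept the call in 15 of 15 alternatives. Among 13 lymphocyte genes 1 rose, Cd4 by 0.37 (limma adjusted p = 0.0417), which was below the mark in both groups and lost the call in 8 of 13 alternatives. In the dendritic cell list H2-Aa and H2-Eb1, class II genes like H2-Ab1, differed by -0.19 and -0.09 without passing. Cd74 and Ciita of that list differed by -0.19 and 0.13, also without passing. H2-Aa, H2-Eb1, Cd74 and Ciita were named after their values were seen, and all but H2-Eb1 were below the mark in both groups. The shares that rose in the dendritic cell and lymphocyte lists, 7.69% each, were near that of all genes. The share in the mast cell list, which rests on 1 gene, was 11.1%. Of 10 genes of erythroid cells and megakaryocytes 0 rose and 0 fell by limma (1 at an unadjusted p under 0.05), and 1 fell with the replicate number as a block. Klf1 and Epor of that list differed by 0.08 and -0.19.

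Of 11 osteoblast genes 1 rose (9.09%) and 0 fell, and 10 did not pass. In 8 of the 11 (72.7%) both Y1KO arrays lay above every WT array, against 60.5% of the macrophage genes and 17.5% of all genes. The mean over this list was 0.55 in Y1KO replicate 1 and 0.64 in replicate 2, against a range of -0.57 to 0.31 in WT, while the median difference was 0.32. The gene that rose was Ifitm5, by 1.66 (limma adjusted p = 0.0341), a call lost without either Y1KO array, WT replicate 1 or WT replicate 4. The count of risen osteoblast genes was 2 without WT replicate 2 or 3 and with array weights and 4 with the replicate number as a block, and 1 fell without WT replicate 2. Named after their values were seen, Dmp1 and Phex differed by 1.66 and 1.53 without passing (limma adjusted p = 0.0789 and 0.24), with widely spread WT arrays, and Dlx5 by -0.36. The part of the osteoblast level in the macrophage markers, and of the macrophage markers in it, was not tested.

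**Figure D5:**
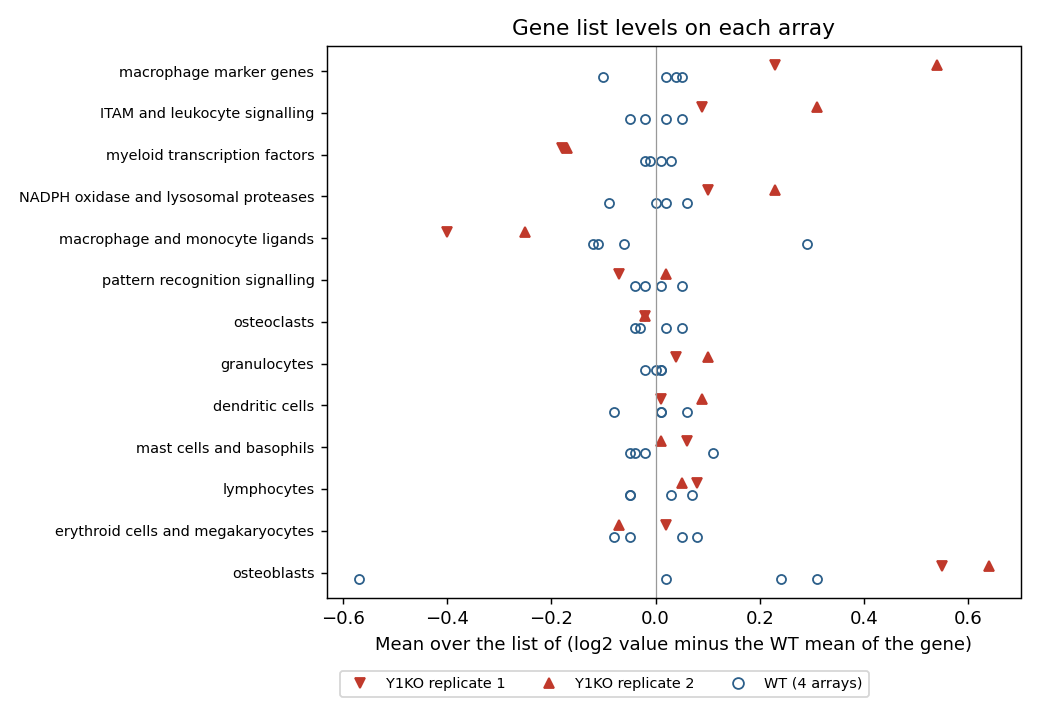
Mean over each gene list of the log2 value minus the WT mean of the gene, on each array, with Y1KO arrays as triangles above the 4 WT arrays as circles. The macrophage markers stand at 0.23 and 0.54 in Y1KO, while the Y1KO arrays lie no more than 0.1 from the WT mean for granulocytes, osteoclasts, dendritic cells, mast cells, lymphocytes and erythroid cells. Osteoblasts stand at 0.55 and 0.64, leukocyte signalling at 0.09 and 0.31, and the oxidase and lysosome list at 0.1 and 0.23. Myeloid transcription factors (-0.18 and -0.17) and ligands (-0.4 and -0.25) lie below the WT mean, and pattern recognition signalling stands at -0.07 and 0.02.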

How the data were processed

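RNA of sorted osteoblastic cells was measured on 2 Y1KO and 4 WT arrays. The authors deposited a log2 value for each of 28815 probe sets on each array. The submitters' processing notes name RMA and limma without version or order, and the sources used here give no build for the probes. The deposited log2 values were used with no further normalization. Arrays carry no depth, so their number limits the precision. Names came from the platform annotation, checked by gene identifier against RefSeq GRCm38.p6: 21780 probe sets had 1 symbol, and a gene was represented by its probe set of highest mean. A difference of log2 values understates changes near background.

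The 2 genotypes were compared in limma 3.58.1 (R 4.3.3, lmFit and eBayes), two-sided, with Benjamini-Hochberg adjustment over all 19935 genes and genotype alone in the model. The script was tested on simulated data. Members, 12 further gene lists (188 names, 171 genes measured) and tests were chosen with earlier results of these data known. All members are named. From each other list the text names the 3 called genes of smallest p, or the first 2 listed where none was called, with Npy1r and Col1a1, and marks others. Promoter letters were read from RefSeq tables. Protein sequences were not used here. Alternatives were other scaling, filters, probe set choice, variance models, array weights, a replicate block and leaving out each array.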

Additional observations from a re-analysis of the deposited data

Results flagged for a closer look

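Over 72 values tested for a single WT array far from the other 3 (by Dixon's ratio of gap to range), 4 met the 95% critical value, which chance alone passes in about 1 group in 20. For C1qa, WT replicate 2 read 5.98, 0.13 above the next WT array and still below both Y1KO arrays. For Lcp2, WT replicate 3 read 4.99, 0.19 above the next. For Csf1, WT replicate 2 read 10.79, 0.57 above the next, which adds to its WT mean. The mean of the ligand list, relative to WT, was 0.29 in that same array, 0.34 above the next WT array, with Ccl9 and Ccl2 also highest there.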

How the results depend on the processing

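The median of the 38 markers stayed positive in all 15 alternatives, and 0 of the 16 risen genes changed sign in any alternative that tested them. Of 221 gene and setting pairs for these 16, 164 kept the call and 57 lost it. The 16 risen genes became 2 when the filter at the 60th percentile left 4 members in the test, 1 without moderation of the variance, and 1 to 15 when single arrays were left out. Under the 60th percentile filter 14.5% of all genes tested rose. With quantile normalization 1 member fell, Cd83, and 1 with array weights, the same gene. The median difference of 0.36 became 0.58 under the 40th percentile filter (19 members tested) and 0.48 under the 60th, and 0.24 to 0.37 when single arrays were left out. The mean difference of 0.38 became 0.5 under the 40th percentile filter and 0.23 to 0.54 when single arrays were left out. All called genes numbered 2541, 344 without moderation and 487 to 2462 when single arrays were left out. The context lists held 13 risen genes, 1 without moderation and 1 to 12 when single arrays were left out, and 10 that fell, 1 without moderation and 4 to 12 with arrays left out. The cause of these shifts was not tested, beyond the smaller number of arrays or genes. Higher genes made up 47.9% of all calls and 53.5% with median-centred arrays. With the replicate number as a block, 11 markers rose and 0 fell, with 5 calls lost (Cd68, Msr1, Aif1, Tyrobp and Lilrb4a) and 2181 genes called in all. Deviations of same-numbered arrays from their group means correlated at 0.01 and -0.2. With 2 Y1KO arrays these deviations mirror each other, so the values cannot show whether same-numbered arrays share more than a number. With the 40th percentile of all genes (4.99) as the background mark, 23 members lay above it in Y1KO and 18 in WT.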
